A study of Mus musculus with 12 samples.

Results

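The genes described here are 10 X-linked genes of the synapse and of neural cell adhesion, chosen by name from the 952 X-linked genes of the deposited table. They fall into 3 roles: the synaptic vesicle genes Syn1 and Syp, the synaptic scaffold genes Cask and Dlg3, and the surface and adhesion genes Nlgn3, L1cam, Slitrk4, Il1rapl1, Pcdh11x and Pcdh19. The study profiled a pair of histone marks of silent chromatin, H3K9me3 and H3K27me3, by ChIP-seq (sequencing of immunoprecipitated chromatin) in female mouse cells. The mice came from C57BL6/J crossed with an F1 of JF1 x C57BL6/J. MD1 cells were Smchd1 MD1/MD1 and Xist deltaA/+, and WT cells were Smchd1 +/+ and Xist deltaA/+, so both genotypes carried the Xist deltaA allele. Each genotype was studied as EpiSCs, epiblast stem cells with the stage given as E6.5, and as MEF, embryonic fibroblasts with the stage given as E13.5. The 12 samples comprised 8 ChIP libraries and 4 inputs, with 1 library per mark, genotype and cell type. The sources used here do not state how many animals or lines stand behind a library.

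SmcHD1 is a chromosomal protein of the SMC family that is needed to keep many genes of the inactive X silent. H3K27me3 is laid down by Polycomb repressive complex 2 and spreads over the inactive X as Xist RNA coats it, whereas H3K9me3 is the mark of constitutive heterochromatin and is bound by HP1 proteins. Synaptic vesicle proteins, scaffolds and adhesion proteins are made mainly by neurons, so EpiSCs and fibroblasts are not the cells they are best known from, although Cask, Dlg3 and L1cam also act outside the nervous system. The X chromosome carries many genes of this kind, and in humans mutations of several of the genes described here cause X-linked intellectual disability, autism or epilepsy.

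All 10 genes had a value in each of the 8 ChIP libraries, as did 698 of the 952 genes. The genes were long, with a median of 55548.5 bases against 20602 bases for those 698 genes, and ranged from 7553 bases (Slitrk4) to 1368382 bases (Il1rapl1). Each deposited value is a log2 enrichment over a whole gene, taken here as the ratio of ChIP to matched input. It therefore averages over the gene, and reads from a gene that lies inside another cannot be told apart from those of its host. Timp1 (4572 bases) lies inside Syn1, Gpr34 and Gpr82 lie inside Cask, and H2afb3 lies inside Pcdh11x, while Araf shares 11 bases with the end of Syn1. The sources used here do not give which X chromosome the reads came from.

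The promoters of Syn1, Syp and Il1rapl1 are shown because the vesicle pair shared the highest H3K9me3 of the 10 genes in WT EpiSCs but differed in H3K27me3, while Il1rapl1 is the longest gene and had the fewest CpGs of the 6 genes with a promoter entry. Sequences are from RefSeq on GRCm38.p6, from 250 bases before to 50 bases after the annotated start, written 5′ to 3′ on the gene's strand with each CpG in capitals. Syn1 lies on the minus strand (chrX:20920869-20921168), Syp on the plus strand (chrX:7638330-7638629) and Il1rapl1 on the minus strand (chrX:88115899-88116198).
Syn1: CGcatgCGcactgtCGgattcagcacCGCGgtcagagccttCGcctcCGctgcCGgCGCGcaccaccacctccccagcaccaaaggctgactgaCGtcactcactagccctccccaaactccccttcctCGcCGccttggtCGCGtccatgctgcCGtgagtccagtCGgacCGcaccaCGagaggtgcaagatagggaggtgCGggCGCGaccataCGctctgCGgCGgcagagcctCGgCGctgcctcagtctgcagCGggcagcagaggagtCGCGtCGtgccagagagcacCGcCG
Syp: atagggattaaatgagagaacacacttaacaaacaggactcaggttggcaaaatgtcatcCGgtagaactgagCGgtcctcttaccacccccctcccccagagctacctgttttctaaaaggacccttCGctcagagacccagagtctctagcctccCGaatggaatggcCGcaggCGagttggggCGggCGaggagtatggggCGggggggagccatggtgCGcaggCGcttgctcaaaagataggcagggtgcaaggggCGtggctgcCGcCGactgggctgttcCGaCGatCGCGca
Il1rapl1: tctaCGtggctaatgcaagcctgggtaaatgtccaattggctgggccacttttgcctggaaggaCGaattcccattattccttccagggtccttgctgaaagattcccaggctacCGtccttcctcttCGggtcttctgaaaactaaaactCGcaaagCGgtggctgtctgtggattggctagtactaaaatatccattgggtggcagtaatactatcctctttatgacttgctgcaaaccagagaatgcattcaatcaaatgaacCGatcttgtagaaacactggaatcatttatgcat

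The Syn1 promoter held 33 CpGs in 300 bases, and 97.4% of 1223 X-linked promoters of the same length held at most that many. The Syp promoter held 18 CpGs, with 81.4% of X-linked promoters at or below that number, and the Il1rapl1 promoter held 7, which was also the X-linked median. Pcdh19 had 18 CpGs in this window, L1cam 25 or 22 at its pair of annotated starts, and Dlg3 28 or 9. The marks were deposited per gene, so none of the values below belongs to these windows alone.

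Every ChIP value turned out to be a ratio of whole numbers, a ChIP number and an input number, times a constant for its library. The smallest such pairs are a rough guide to how much data stands behind each gene. They can be smaller than the read counts, because a divisor common to the counts is lost. The median ChIP number per gene was 13 for H3K9me3 in MD1 EpiSCs, 70 in WT EpiSCs, 29 in MD1 MEF and 53 in WT MEF. For H3K27me3 it was between 293 and 678 in the 4 libraries. Counting intervals (95%) from these pairs are given with single-gene differences. Where a pair is reduced, its interval is wider than the read counts would give. The intervals cover counting error only, and with 1 library per group no difference has a replicate check or a test. The constants of the libraries are unknown, so that a difference between libraries includes their ratio. A gene counted as lower or higher is one that differed at least 2-fold as deposited. The zero of a library depends on its constant too, so that over, near or under the input also means as deposited. The table holds X-linked genes, so Smchd1 and autosomal markers of the cell types were not analysed here.

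As deposited, all 10 genes had at least 2-fold less H3K9me3 in MD1 EpiSCs than in WT EpiSCs, whereas after each library was centred on the median of all its genes 3 were at least 2-fold lower and 3 at least 2-fold higher. The background was high, with 82.9% of the 708 genes measured in both genotypes at least 2-fold lower and 1.13% at least 2-fold higher as deposited. The shares of all genes after centring are not given here. The median difference (MD1 minus WT) over the 10 genes was -3.63 on the log2 scale, against -2.98 over all 708 genes. For 9 of the 10 the counting interval excluded 0, the exception being Nlgn3. The share of all genes with such an interval is not given here, and 95.9% of the 708 genes had a negative difference as deposited. With that centring, which adds 3.30 to each difference, Syn1 (-2.29), Syp (-3.07) and Slitrk4 (-1.53) were the 3 lower genes, and Cask (1.89), Dlg3 (1.89) and Nlgn3 (2.25) the 3 higher ones. The median of all 708 differences, -2.98 as deposited, was then above 0, because the medians of the libraries set the shift. Percentiles among the 708 differences do not depend on the centring. They were 6.07 (Syn1), 2.12 (Syp) and 15.4 (Slitrk4) for the lower genes, and 75.6 (Cask), 75.3 (Dlg3) and 81.9 (Nlgn3) for the higher ones. The 10 genes differed less among themselves in MD1 EpiSCs, with an SD over genes of 0.69, than in WT EpiSCs, with an SD of 1.71. Over all genes the SD was likewise 1.12 in MD1 EpiSCs against 1.76 in WT EpiSCs.

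**Figure D1:**
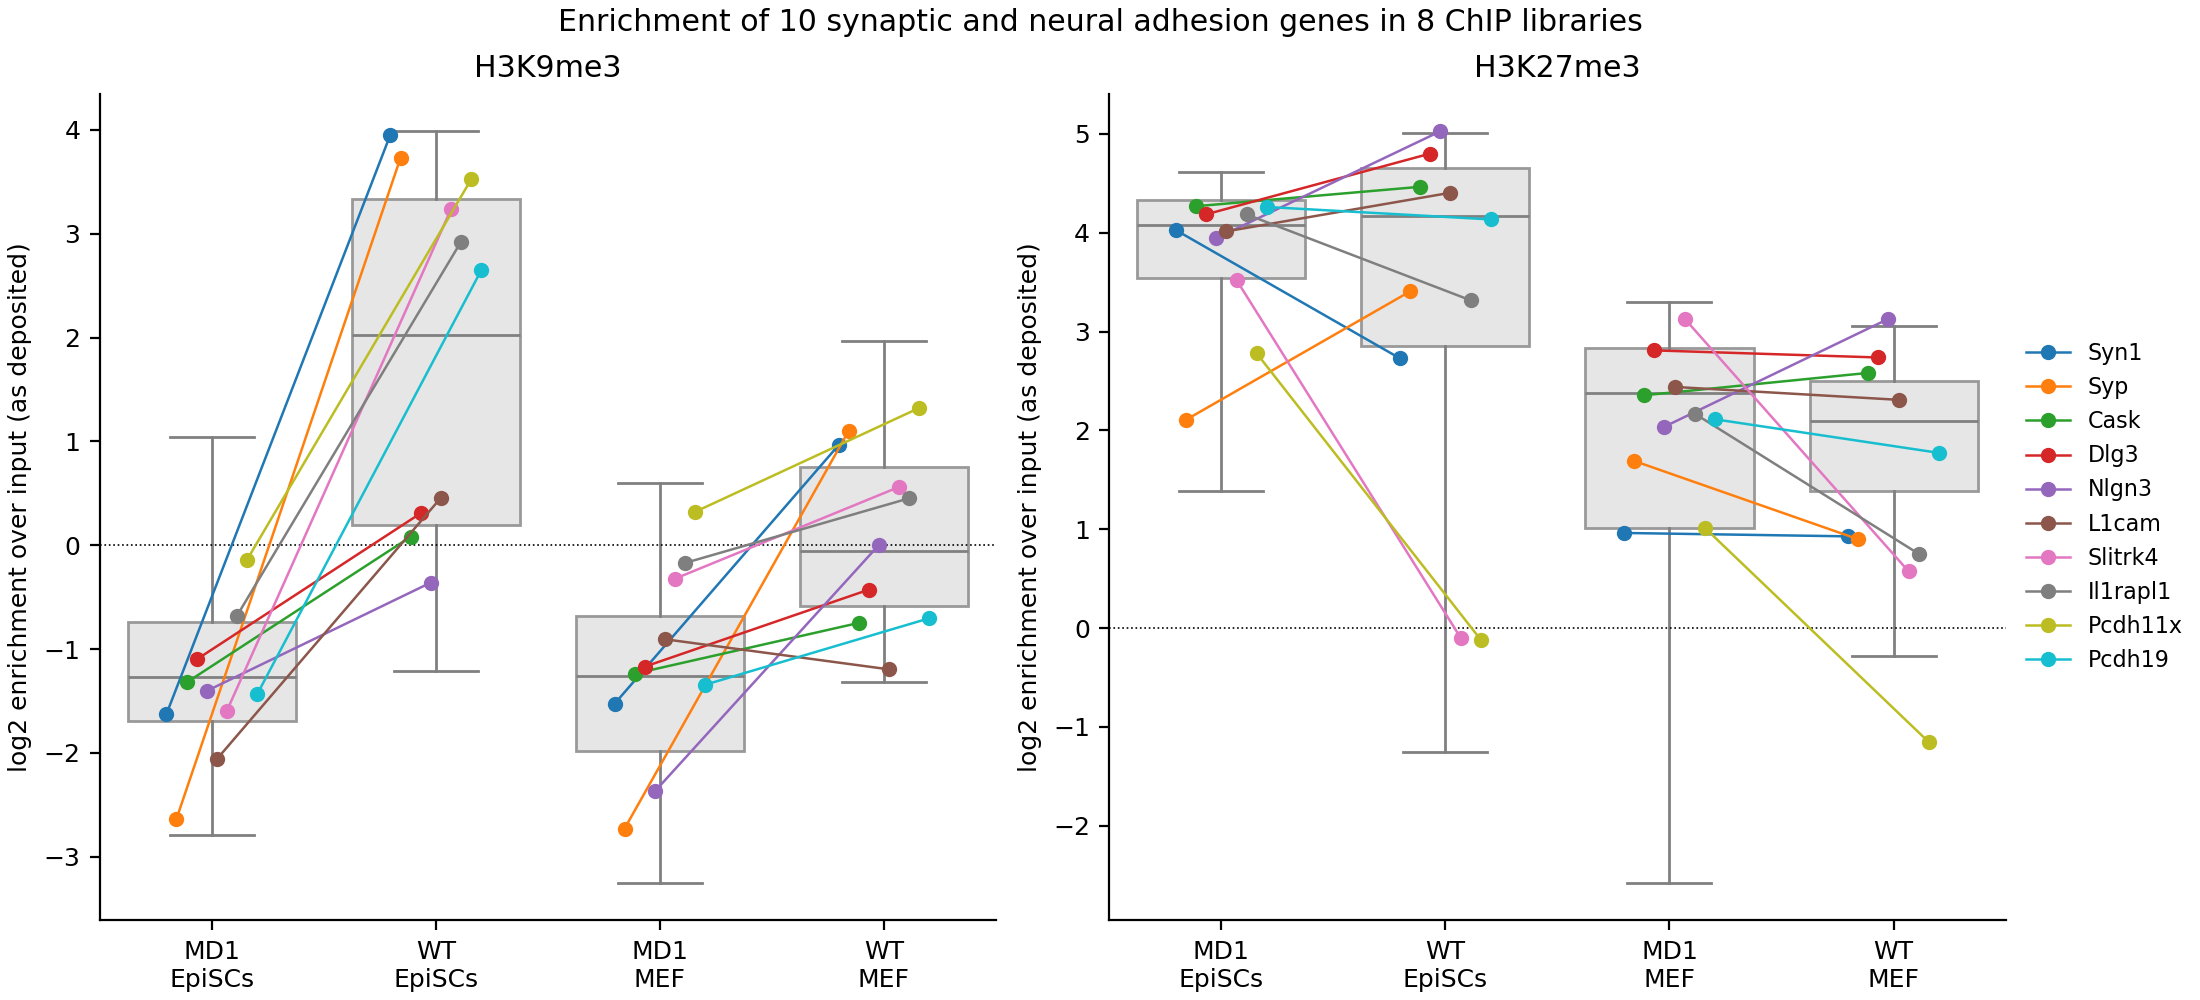
Log2 enrichment over input as deposited (vertical axes) of the 10 genes in the 8 ChIP libraries, H3K9me3 on the left and H3K27me3 on the right, with a line joining MD1 and WT values of the same gene. Grey boxes give the quartiles and the median of all genes in each library and whiskers their 5th and 95th percentiles. For H3K9me3 in EpiSCs the WT values split into 6 genes between 2.65 and 3.96 and 4 genes between -0.36 and 0.46, whereas all 10 MD1 values lie below 0.

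The vesicle genes had the largest differences. Syn1, which encodes synapsin I, a protein that tethers synaptic vesicles to the cytoskeleton (mm9 X, 20437637 to 20498044, minus strand), had an H3K9me3 value of -1.63 in MD1 EpiSCs against 3.96 in WT EpiSCs, a difference of -5.58 (-6.09 to -5.08). The WT value stood at percentile 94.3 of its library and was the highest of the 10 genes, while the MD1 value stood at percentile 28.1. Syp encodes synaptophysin, an abundant membrane protein of synaptic vesicles (X, 7215706 to 7230382, plus strand). Its H3K9me3 value was -2.63 in MD1 EpiSCs against 3.73 in WT EpiSCs, a difference of -6.37 (-7.63 to -5.10). In MD1 EpiSCs Syp was the lowest of the 10 genes, at percentile 7.07, and rested on a ChIP number of 6.

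As deposited, the scaffold genes had H3K9me3 values near or under the input in both genotypes of EpiSCs. Cask, a membrane-associated guanylate kinase that links surface proteins such as neurexins to the presynaptic cytoskeleton (X, 13094208 to 13423682, minus strand), had -1.32 in MD1 EpiSCs against 0.081 in WT EpiSCs, a difference of -1.40 (-1.66 to -1.14). Dlg3, which encodes the postsynaptic scaffold SAP102 that anchors NMDA receptors (X, 97963061 to 98013749, plus strand), had -1.10 in MD1 EpiSCs against 0.31 in WT EpiSCs, a difference of -1.41 (-2.08 to -0.74). Both WT values lay near the level of the input and low in their library, at percentiles 23.2 (Cask) and 26.4 (Dlg3).

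Of the adhesion genes, Nlgn3 and L1cam resembled the scaffolds in their low H3K9me3 in WT EpiSCs. Nlgn3 encodes neuroligin 3, a postsynaptic partner of neurexins (X, 98494518 to 98516689, plus strand), and had -1.40 in MD1 EpiSCs against -0.36 in WT EpiSCs, a difference of -1.04 with a counting interval (-2.11 to 0.019) that included 0. L1cam, an immunoglobulin-superfamily protein of axon growth and fasciculation (X, 71099119 to 71126173, minus strand), had -2.06 in MD1 EpiSCs against 0.46 in WT EpiSCs, a difference of -2.52 (-3.84 to -1.20). Its MD1 value stood at percentile 14.7 of the library, against 46.5 for Cask and 58.7 for Dlg3. The ChIP number of L1cam was 11 in each genotype, on input numbers of 133 in MD1 EpiSCs and 34 in WT EpiSCs, so the WT pair may be reduced. These 2 genes, with Cask and Dlg3, were the only ones of the 10 under 2-fold enrichment in WT EpiSCs.

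The other 4 adhesion genes were rich in H3K9me3 in WT EpiSCs. Slitrk4, a leucine-rich repeat protein of the SLITRK family that takes part in synapse formation (X, 61522619 to 61530171, minus strand), had -1.59 in MD1 EpiSCs against 3.23 in WT EpiSCs, a difference of -4.83 (-6.44 to -3.22) that rested on an MD1 ChIP number of 4. Il1rapl1, a synaptic organiser of the interleukin 1 receptor family (X, 83992581 to 85360962, minus strand), had -0.68 in MD1 EpiSCs against 2.92 in WT EpiSCs, a difference of -3.60 (-3.70 to -3.50). The large ChIP numbers of this very long gene, 1251 in MD1 EpiSCs and 10432 in WT EpiSCs, gave it the narrowest interval of the 10. The protocadherins Pcdh11x (X, 117403936 to 118024227, plus strand) and Pcdh19 (X, 130117400 to 130223532, minus strand) are cadherin-related adhesion proteins of neurons. Pcdh11x had -0.14 in MD1 EpiSCs against 3.52 in WT EpiSCs, a difference of -3.66 (-3.80 to -3.52), and Pcdh19 had -1.44 in MD1 EpiSCs against 2.65 in WT EpiSCs, a difference of -4.08 (-4.52 to -3.64). Pcdh11x had the highest MD1 value of the 10 genes, at percentile 86.0 of its library, and so stood high among the X-linked genes although it was under the input.

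Each of the 6 genes that were at least 2-fold over input in WT EpiSCs lay inside a run of consecutive measured genes with the same property. In that library 64.0% of all genes had this property, and runs were not read for other genes, so lying in a run cannot be called particular to the 6. Syn1 lay in a run of 95 genes from Chst7 to Igsf1, and Syp in one of 70 genes from Mycs to Gm14635. Slitrk4 lay in a run of 23 genes (F9 to BC023829, X, 57252641 to 67730218) and Il1rapl1 in one of 13 genes (Tab3 to Pcyt1b, X, 82819361 to 90995287). Pcdh11x and Pcdh19 shared a run of 53 genes (P2ry10 to B230119M05Rik, X, 104284674 to 131221001). In MD1 EpiSCs none of the 10 genes reached 2-fold over input, where 5.30% of all genes did, against 6 of the 10 in WT EpiSCs, where 64.0% did. Values under the input were found for 10 of the 10 genes in MD1 EpiSCs (87.4% of all genes) and for 1 of the 10, Nlgn3, in WT EpiSCs (21.6%).

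In MEF 4 of the 10 genes (Syn1, Syp, Nlgn3 and Pcdh11x) were at least 2-fold lower in MD1 MEF, where 51.3% of 739 genes were, and none was at least 2-fold higher (0.677% of all genes). Centred on the median of all genes, which adds 1.19, 3 were lower (Syn1, Syp and Nlgn3) and 1 higher (L1cam, at 1.48). With that centring the differences of Cask (0.70), Dlg3 (0.45), Slitrk4 (0.31), Il1rapl1 (0.57), Pcdh11x (0.19) and Pcdh19 (0.55) turned positive. So did the median of all 739 differences, since 1.19 is added to each. A positive centred value therefore does not by itself place a gene above most genes. The percentiles of these genes ran from 51.3 (Pcdh11x) to 74.7 (Cask). The median difference over the 10 genes was -0.81 as deposited, against -1.02 over all 739 genes, and came to 0.38 when centred on all genes and to 0.18 when centred on genes outside the H3K9me3-rich set (those under 2-fold over input by H3K9me3 in WT cells). In WT MEF only Syp and Pcdh11x reached 2-fold over input (20.3% of all genes), with Syn1 just under it, and in MD1 MEF none did (2.92%). Values under the input were found for 9 of the 10 genes in MD1 MEF (88.9% of all genes) and 4 of the 10 in WT MEF (52.3%). The SD over the 10 genes was 0.95 in MD1 MEF against 0.88 in WT MEF, and over all genes 1.16 in MD1 MEF against 1.03 in WT MEF.

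Syn1 had an H3K9me3 value of -1.53 in MD1 MEF against 0.96 in WT MEF, a difference of -2.49 (-2.84 to -2.15), and Syp had -2.73 in MD1 MEF against 1.10 in WT MEF, a difference of -3.83 (-4.96 to -2.70). As in EpiSCs, Syp had the lowest MD1 value of the 10 genes, here on a ChIP number of 9, and the largest difference. In WT MEF it lay in a run of 41 genes at least 2-fold over input (Foxp3 to Ssxb8, X, 7156802 to 8267970). Cask had -1.24 in MD1 MEF against -0.75 in WT MEF, a difference of -0.49 (-0.71 to -0.27), and Dlg3 had -1.17 in MD1 MEF against -0.43 in WT MEF, a difference of -0.74 (-1.34 to -0.14). Both scaffold genes were thus under the input in both genotypes.

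Among the adhesion genes in MEF, Nlgn3 had the largest H3K9me3 difference, with -2.37 in MD1 MEF against 0.0026 in WT MEF, a difference of -2.37 (-3.25 to -1.50). As deposited, L1cam was the 1 gene of the 10 with a positive difference, with -0.91 in MD1 MEF against -1.20 in WT MEF and a difference of 0.29 whose interval (-0.37 to 0.95) included 0. Pcdh11x had 0.32 in MD1 MEF against 1.32 in WT MEF, a difference of -1.001 (-1.10 to -0.91), and stood at percentile 92.8 of the MD1 library and at 86.1 of the WT library. It was the highest of the 10 genes in both genotypes of MEF and the only one above the input in MD1 MEF. Slitrk4 had -0.32 in MD1 MEF against 0.56 in WT MEF, a difference of -0.88 (-1.88 to 0.12). Il1rapl1 had -0.17 in MD1 MEF against 0.45 in WT MEF, a difference of -0.62 (-0.73 to -0.52), and Pcdh19 had -1.34 in MD1 MEF against -0.70 in WT MEF, a difference of -0.64 (-0.97 to -0.31). Pcdh19, which lay in an H3K9me3 run in WT EpiSCs, was under the input in both genotypes of MEF.

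**Figure D2:**
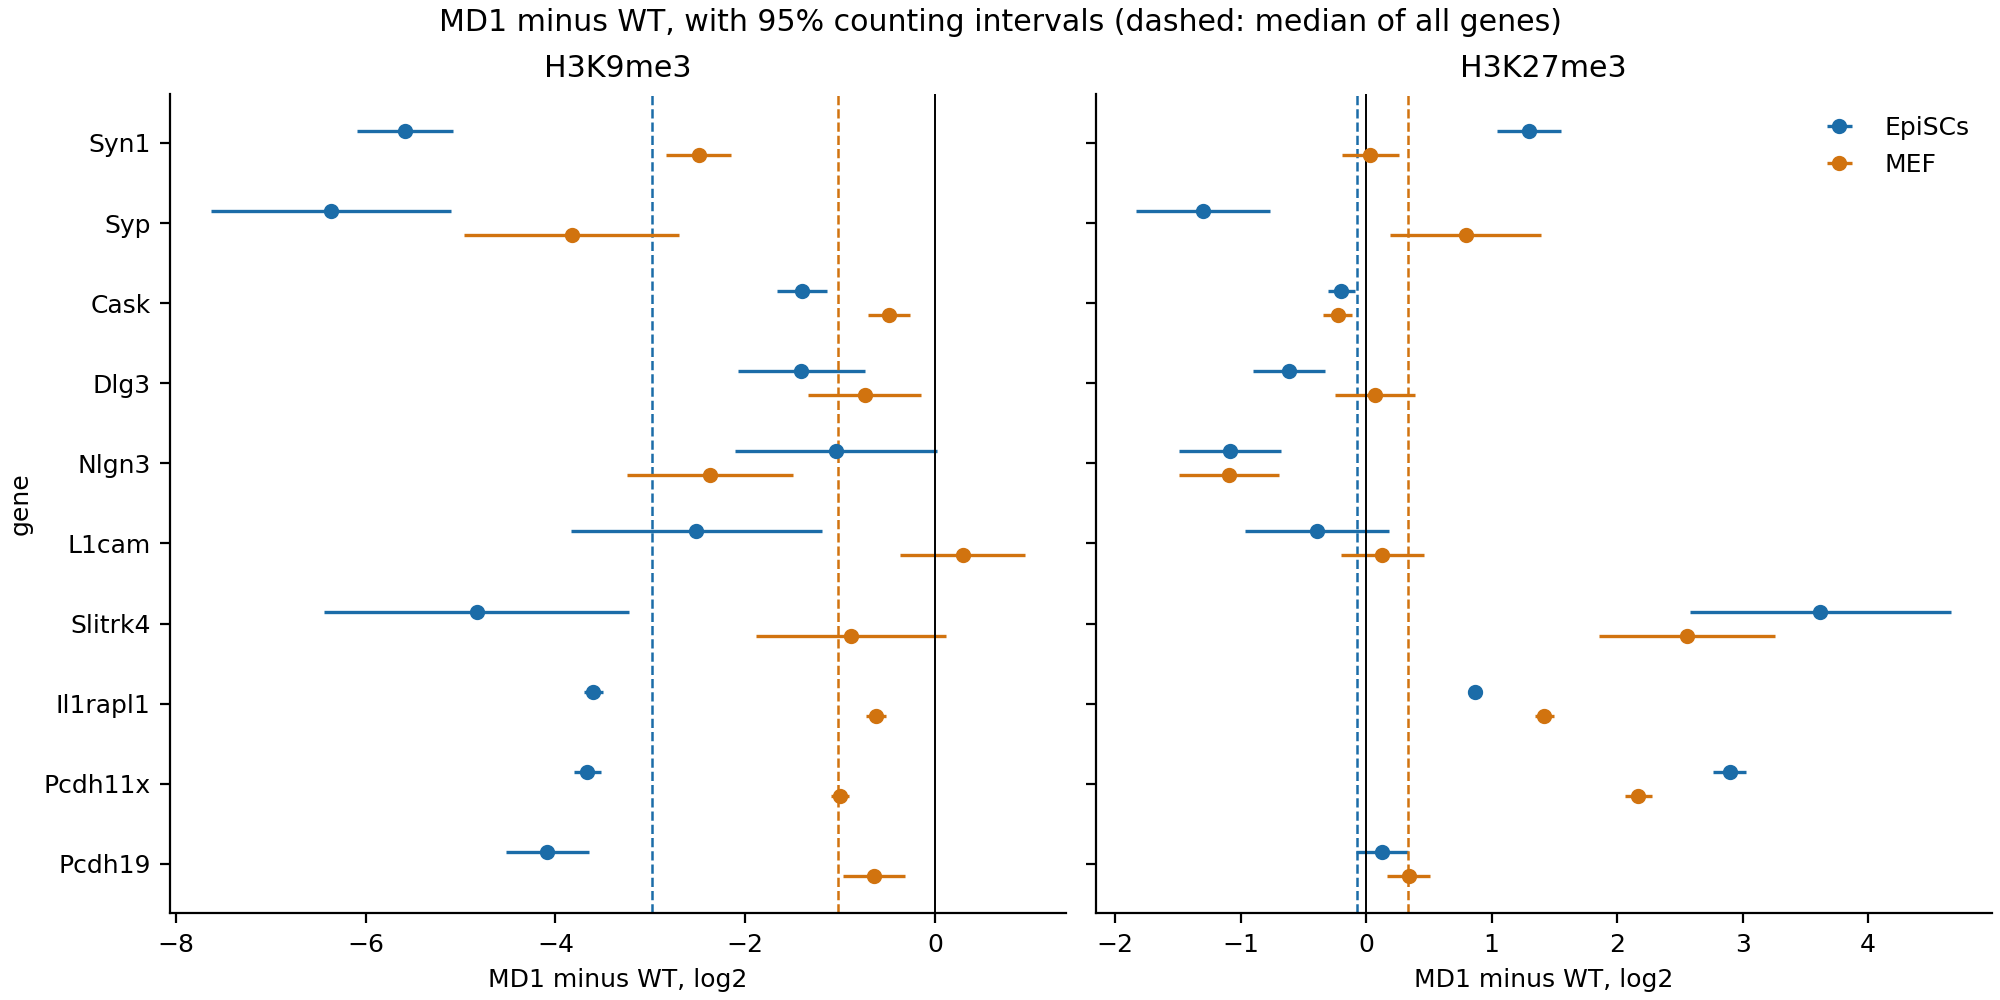
MD1 minus WT differences in log2 enrichment (horizontal axes) of the 10 genes for H3K9me3 on the left and H3K27me3 on the right, in EpiSCs and in MEF. Points are differences, bars are 95% counting intervals and dashed lines the medians of all genes, -2.98 (EpiSCs) and -1.02 (MEF) for H3K9me3 and -0.07 (EpiSCs) and 0.34 (MEF) for H3K27me3. As deposited, all H3K9me3 points but that of L1cam in MEF lie below 0, whereas the H3K27me3 points lie on both sides.

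H3K27me3 differed between the genotypes in both directions. In EpiSCs 3 of the 10 genes (Syn1, Slitrk4 and Pcdh11x) were at least 2-fold higher in MD1 cells, where 22.7% of all genes were, and 2 (Syp and Nlgn3) at least 2-fold lower, where 11.3% were. In MEF 3 (Slitrk4, Il1rapl1 and Pcdh11x) were at least 2-fold higher, where 22.3% of all genes were, and 1 (Nlgn3) at least 2-fold lower, where 24.0% were. The median difference over the 10 genes was -0.035 in EpiSCs and 0.24 in MEF, against -0.069 and 0.34 over all genes of the same comparisons. Both medians were near those of all genes, and the 10 genes differed among themselves. Centring on all genes adds 0.10 in EpiSCs and -0.29 in MEF, and Nlgn3 was then just under 2-fold lower in EpiSCs (-0.98). Centring on genes outside the H3K9me3-rich set adds 0.47 in EpiSCs, where it ended both calls of lower genes (Syp -0.83, Nlgn3 -0.62) and added Il1rapl1 (1.33) to the higher genes. For neither centring is the share of all genes past 2-fold given here.

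Slitrk4 and Pcdh11x had the largest H3K27me3 differences of the 10 genes in both cell types. Slitrk4 had an H3K27me3 value of 3.52 in MD1 EpiSCs against -0.097 in WT EpiSCs, a difference of 3.62 (2.58 to 4.66) on a WT ChIP number of 14, and 3.13 in MD1 MEF against 0.57 in WT MEF, a difference of 2.56 (1.86 to 3.26). Pcdh11x had 2.78 in MD1 EpiSCs against -0.12 in WT EpiSCs, a difference of 2.90 (2.77 to 3.03), and 1.02 in MD1 MEF against -1.15 in WT MEF, a difference of 2.17 (2.06 to 2.28). In WT EpiSCs these were the only 2 of the 10 genes under the input for H3K27me3, and in WT MEF Pcdh11x was the only one, at percentile 1.34 of its library. In MD1 MEF Slitrk4 was the highest of the 10 genes, at percentile 92.0, while in WT MEF only Pcdh11x was below it. Such ranks do not depend on the constants of the libraries.

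The other adhesion genes had smaller differences. Il1rapl1 had 4.19 in MD1 EpiSCs against 3.32 in WT EpiSCs, a difference of 0.87 (0.81 to 0.93), and 2.17 in MD1 MEF against 0.75 in WT MEF, a difference of 1.42 (1.34 to 1.49). Pcdh19 had 4.26 in MD1 EpiSCs against 4.14 in WT EpiSCs, a difference of 0.13 (-0.080 to 0.33), and 2.11 in MD1 MEF against 1.77 in WT MEF, a difference of 0.34 (0.17 to 0.51). The 2 protocadherins, which shared an H3K9me3 run in WT EpiSCs, thus stood apart for H3K27me3 there, with Pcdh11x the lowest of the 10 genes and Pcdh19 near the median of the library. L1cam had 4.01 in MD1 EpiSCs against 4.41 in WT EpiSCs, a difference of -0.39 (-0.96 to 0.18), and 2.44 in MD1 MEF against 2.31 in WT MEF, a difference of 0.13 (-0.20 to 0.46). Its EpiSCs interval rests on input numbers of 133 in MD1 and 34 in WT cells, and may be too wide if the WT pair is reduced. Nlgn3 had 3.95 in MD1 EpiSCs against 5.03 in WT EpiSCs, a difference of -1.08 (-1.49 to -0.68), and 2.04 in MD1 MEF against 3.13 in WT MEF, a difference of -1.09 (-1.49 to -0.69). Nlgn3 was the highest of the 10 genes in both WT libraries, at percentiles 95.5 (EpiSCs) and 96.4 (MEF), and stood at percentiles 40.5 (EpiSCs) and 39.9 (MEF) in the MD1 libraries.

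The scaffold genes were more than 4-fold over the input in every H3K27me3 library. Cask had 4.27 in MD1 EpiSCs against 4.47 in WT EpiSCs, a difference of -0.20 (-0.30 to -0.090), and 2.36 in MD1 MEF against 2.58 in WT MEF, a difference of -0.23 (-0.34 to -0.11). Dlg3 had 4.19 in MD1 EpiSCs against 4.80 in WT EpiSCs, a difference of -0.61 (-0.90 to -0.33), and 2.81 in MD1 MEF against 2.74 in WT MEF, a difference of 0.072 (-0.25 to 0.39). None of these 4 differences reached 2-fold.

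The vesicle genes, alike in H3K9me3, parted in H3K27me3. Syn1 had 4.03 in MD1 EpiSCs against 2.73 in WT EpiSCs, a difference of 1.30 (1.04 to 1.55), and 0.96 in MD1 MEF against 0.93 in WT MEF, a difference of 0.034 (-0.19 to 0.26). Syp had 2.11 in MD1 EpiSCs against 3.41 in WT EpiSCs, a difference of -1.30 (-1.83 to -0.77), and 1.69 in MD1 MEF against 0.90 in WT MEF, a difference of 0.79 (0.19 to 1.40). In MD1 EpiSCs Syp was the lowest of the 10 genes in both marks, at percentile 7.34 for H3K27me3. Whether Syp differs between the cell types was not tested, since each value comes from 1 library.

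Enrichment over input by H3K27me3 was the rule in both genotypes. At least 2-fold enrichment was found in 10 of the 10 genes in MD1 EpiSCs (96.1% of all genes) and 8 in WT EpiSCs (87.1%), and in 9 in MD1 MEF (75.1%) and 5 in WT MEF (80.9%). Values under the input were found for none of the 10 in MD1 EpiSCs (2.31% of all genes) and 2 in WT EpiSCs (10%, or 72 of 719 genes), and for none in MD1 MEF (17.8%) and 1 in WT MEF (6.69%). The spread among the 10 genes was smaller in MD1 than in WT cells. Their values spanned 2.16 log2 units in MD1 EpiSCs against 5.14 in WT EpiSCs, and 2.17 in MD1 MEF against 4.28 in WT MEF. The SD over the 10 genes was 0.73 in MD1 EpiSCs against 1.89 in WT EpiSCs, and over all genes it was 1.09 in MD1 EpiSCs against 1.93 in WT EpiSCs. In MEF the SD over the 10 genes was 0.70 in MD1 cells against 1.30 in WT cells, whereas over all genes it was larger in MD1 cells (1.83) than in WT cells (1.03). These SDs describe genes, not replicates, and do not depend on the constants.

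In WT cells those of the 10 genes with more H3K9me3 tended to have less H3K27me3. The marks did not exclude each other. As deposited, Syn1, Syp, Il1rapl1 and Pcdh19 were at least 2-fold over input by both marks in WT EpiSCs. In WT EpiSCs the order by H3K27me3 ran Nlgn3, Dlg3, Cask, L1cam, Pcdh19, Syp, Il1rapl1, Syn1, Slitrk4, Pcdh11x from high to low, and the 4 genes at its head were the 4 with least H3K9me3. Across the 10 genes the WT levels of the marks had a Pearson r of -0.70 and a Spearman rho of -0.85 in EpiSCs, against -0.62 and -0.78 across 708 genes. In MEF they were -0.78 and -0.70 across the 10 genes, against -0.45 and -0.52 across 739 genes. Genes are not replicates and the marks share an input, so these are descriptions.

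The H3K27me3 differences were read by whether a gene was at least 2-fold over input by H3K9me3 in WT cells. The 6 genes at least 2-fold over input by H3K9me3 in WT EpiSCs (Syn1, Syp, Slitrk4, Il1rapl1, Pcdh11x and Pcdh19) had a median H3K27me3 difference of 1.08, against 0.47 over all 452 such genes, and it was positive in 5 of the 6, Syp being the exception. The other 4 (Cask, Dlg3, Nlgn3 and L1cam) had a median H3K27me3 difference of -0.50, against -0.48 over the 256 such genes, and as deposited it was negative in all 4. Centred on the genes outside the H3K9me3-rich set, which adds 0.47, Cask (0.27) and L1cam (0.074) were positive and Dlg3 (-0.15) and Nlgn3 (-0.62) negative. Of the 10 genes, Pcdh19 (2.65) was the closest above that limit of 1 on the log2 scale and L1cam (0.46) the closest below it. In MEF only Syp (1.10) and Pcdh11x (1.32) were above the limit, with H3K27me3 differences of 0.79 and 2.17 against a median of 0.998 over 149 such genes, and Syn1 (0.96) lay just below it. The other 8 genes in MEF had a median of 0.10, against 0.28 over 590 such genes, and as deposited 6 of the 8 were positive, up to 2.56 for Slitrk4. The negative side seen in EpiSCs was therefore not found in these 8 genes in MEF as deposited. After centring on all genes Syn1 (-0.25), Dlg3 (-0.22) and L1cam (-0.16) were negative as well. The shares of the 452, 256 and 590 genes with a positive or negative difference are not given here, so the sign counts describe the 10 genes only. The H3K9me3 differences of such groups are not set against each other, since the WT value that forms the groups is part of them.

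**Figure D3:**
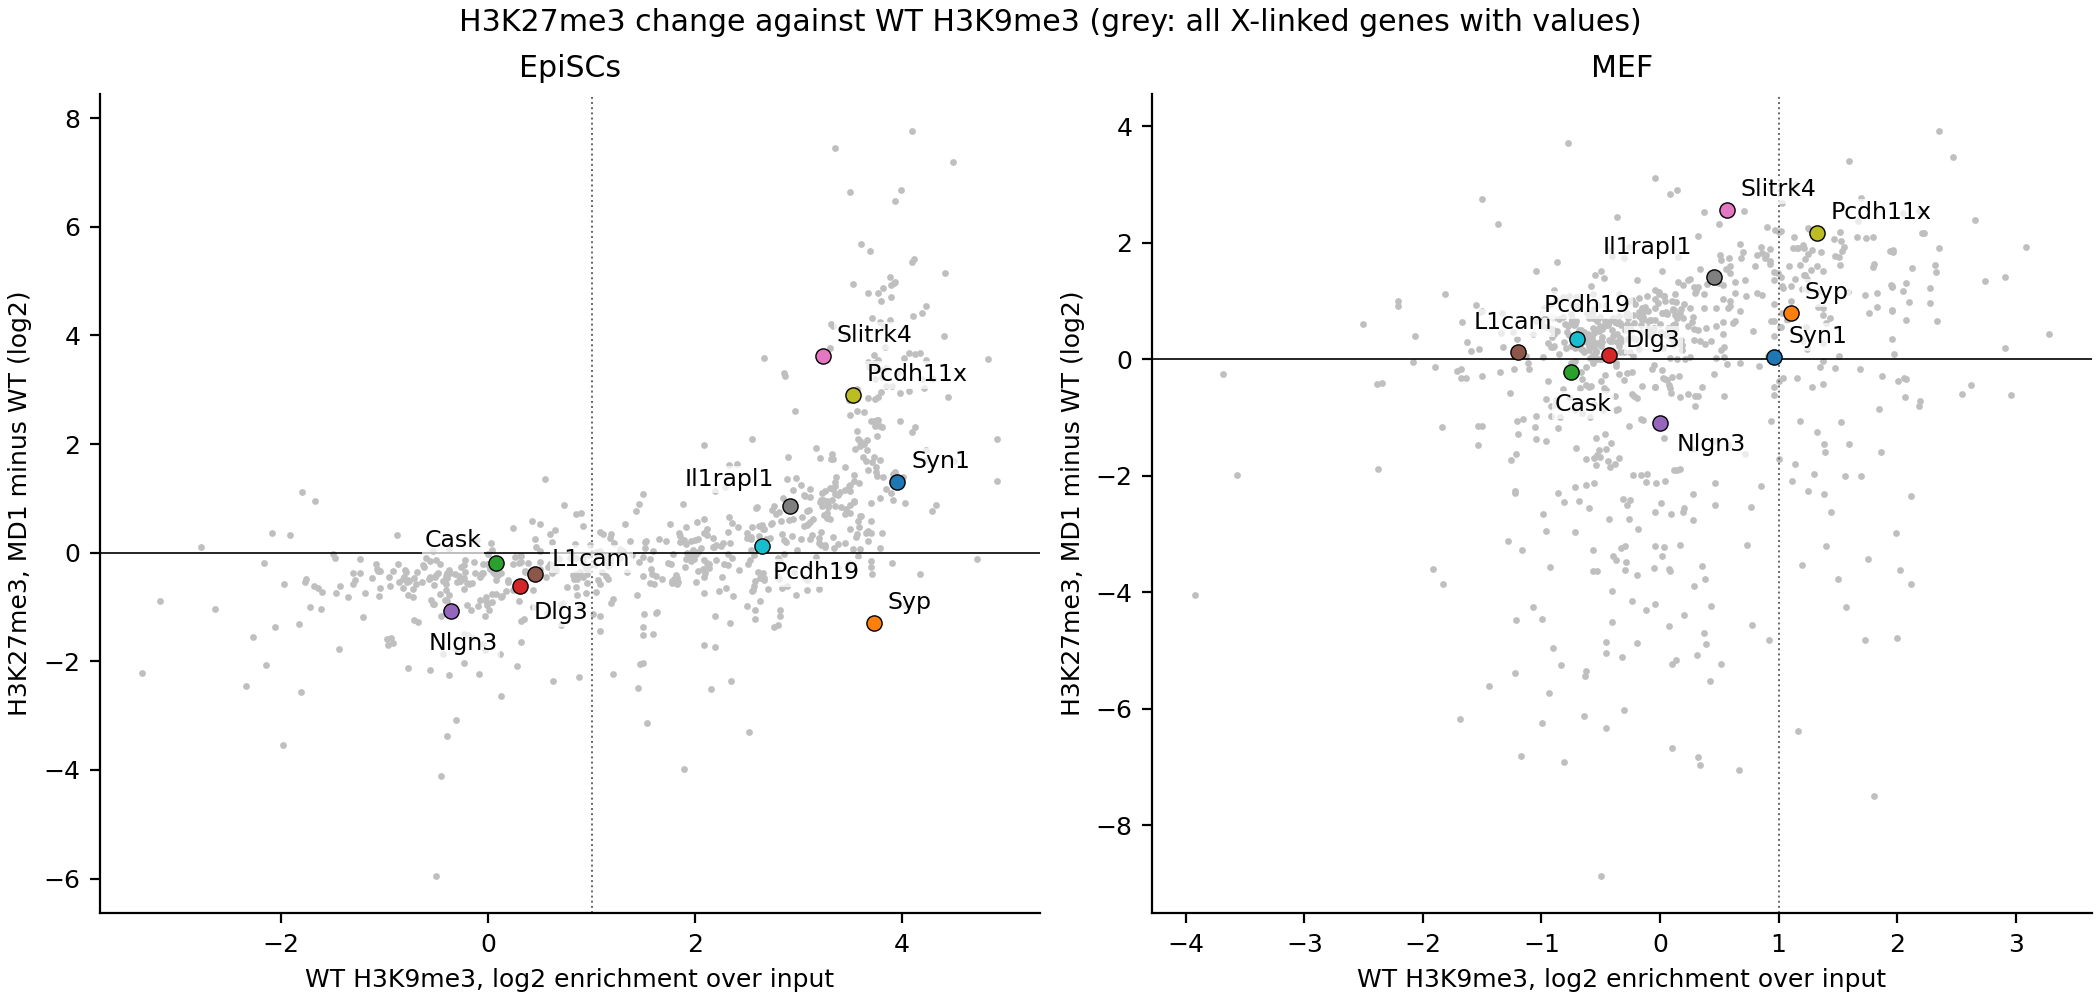
MD1 minus WT difference in H3K27me3 (vertical axes, log2) against the H3K9me3 enrichment over input in WT cells (horizontal axes, log2) for EpiSCs on the left and MEF on the right. Grey points are all genes with values and the dotted line marks 2-fold enrichment. As deposited, in EpiSCs 5 of the 6 genes right of the line lie above 0 and Syp lies at -1.30, while the 4 genes left of it lie below 0.

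Each gene was next set beside the 10 measured genes next to it in chromosomal order, 5 on each side. Such neighbours can be far away. In EpiSCs the adjacent measured gene on 1 side lay 5550 kb from Pcdh11x and 3117 kb from Pcdh19. For Il1rapl1 it lay 1288 kb away and for Slitrk4 771 kb. A library's constant drops out of this difference. For H3K9me3 in EpiSCs the 10 genes differed from their neighbours' median by between -0.97 (Syp) and 0.20 (Nlgn3). Of the 10, 3 were above it (51.1% of all genes), none of them at least 2-fold (16.7% of all genes). In MEF 7 were above it (50.5% of all genes), and L1cam, 1.503 above, was the 1 gene at least 2-fold above (9.61%). For H3K27me3 in EpiSCs 7 of the 10 were above their neighbours (50.8% of all genes). Slitrk4 (1.81 above) and Pcdh11x (1.67 above) were at least 2-fold above, where 11.2% of all genes were, and Syp was 1.03 log2 units below.

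In MEF the H3K27me3 differences of the 10 genes lay above those of their neighbours by a median of 0.94, where the median over all 739 genes was 0.00018. Above their neighbours were 8 of the 10 (50.1% of all genes), and 5 (Syn1, Syp, Nlgn3, L1cam and Slitrk4) were so at least 2-fold (14.6% of all genes). The neighbours had a median difference of -0.56 over the 10 genes, against 0.24 for the genes themselves. Cask (0.25), Pcdh11x (0.49) and Dlg3 (0.82) were above by less than 2-fold, while Il1rapl1 (-0.073) and Pcdh19 (-0.45) were not above. No test was made of this contrast, and the 10 genes were not matched to other genes in length or in level.

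Syn1 and Nlgn3 show the contrast most plainly. As deposited, the nearest genes to Syn1 had less H3K27me3 in MD1 MEF. Araf, a kinase of the RAF family that adjoins Syn1, had -1.61 in MD1 MEF against 0.39 in WT MEF, a difference of -1.996, and Timp1, an inhibitor of metalloproteinases inside Syn1, had -1.27 in MD1 MEF against 0.81 in WT MEF, a difference of -2.09. Syn1, averaged over all its 60408 bases, differed by 0.034, and its 10 neighbours had a median of -1.98. Nlgn3 lies 0.244 kb from Med12, a subunit of the Mediator complex, which had -1.02 in MD1 MEF against 2.61 in WT MEF, a difference of -3.63. The neighbours of Nlgn3 had a median difference of -3.03, against -1.09 for Nlgn3. For L1cam the neighbours' median was -1.45, against 0.13 for L1cam, and for Syp it was -0.64, against 0.79 for Syp.

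**Figure D4:**
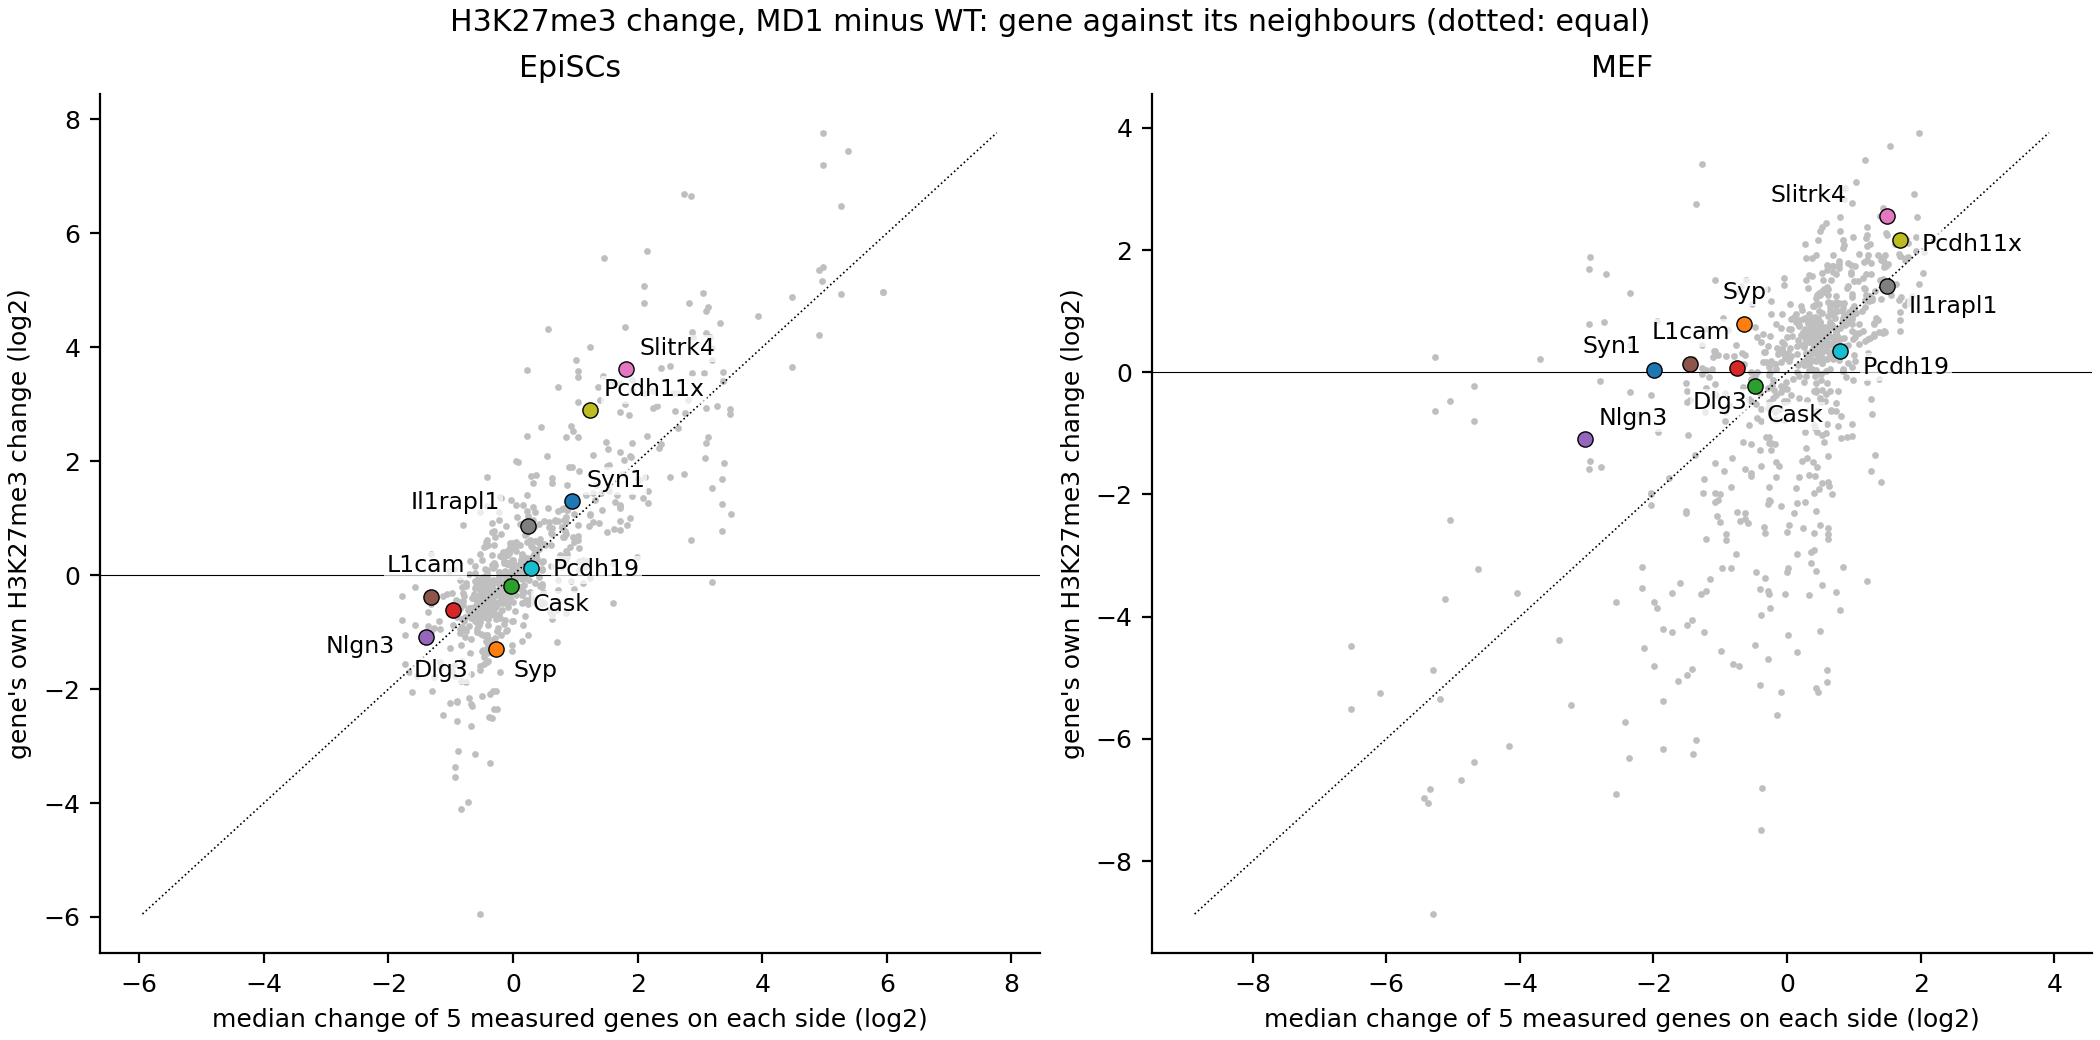
MD1 minus WT difference in H3K27me3 of each gene (vertical axes, log2) against the median difference of the 5 measured genes on each side (horizontal axes, log2), for EpiSCs on the left and MEF on the right. Grey points are all genes with values, and the dotted line marks equal differences. In MEF 8 of the 10 named genes lie above the line, with Syn1 (2.02 above) and Nlgn3 (1.94 above) the farthest from it.

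A list of 20 other X-linked genes of the synapse and of neurons was read in the same way. For H3K9me3 15 of the 19 with values in EpiSCs were at least 2-fold lower in MD1 cells (82.9% of all genes) and none was at least 2-fold higher (1.13%), with a median difference of -2.21 against -2.98 over all genes. The largest decrease was that of Atp6ap1, an accessory subunit of the vacuolar proton pump, at -6.75 (-9.65 to -3.85) on an MD1 ChIP number of 1. The highest value was that of Iqsec2, a postsynaptic exchange factor for ARF proteins, at 0.39 (-0.21 to 0.99). In MEF 7 of 20 were at least 2-fold lower (51.3% of all genes) and none at least 2-fold higher (0.677%), with a median of -0.50 against -1.02. Their extremes were Efnb1, an ephrin ligand, at -4.46 (-6.20 to -2.72) and Iqsec2 at 0.28 (-0.13 to 0.69).

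For H3K27me3 the list of 20 again went both ways. In EpiSCs 2 of 19 were at least 2-fold lower (11.3% of all genes) and 2 at least 2-fold higher (22.7%), with a median of -0.37 and extremes of -1.73 (Atp6ap1) and 2.33 (Slitrk2). In MEF 5 of 20 were at least 2-fold lower (24.0% of all genes) and 2 at least 2-fold higher (22.3%), with a median of 0.35 against 0.34. The 2 that were higher were Cnksr2 and Slitrk2, with Slitrk2 at 1.91 (1.09 to 2.74). Slitrk4, a member of the same family, had 2.56 (1.86 to 3.26). None of the 10 synaptic and adhesion genes had an H3K27me3 decrease in MEF larger than the -1.09 of Nlgn3.

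The genes with a profile most like the median of the 10 over the 8 libraries were Clcn5, Cysltr1 and Tenm1, with root mean square differences of 0.21, 0.32 and 0.34 log2 units among 688 genes compared. Tenm1 encodes a teneurin, a large adhesion protein of neurons, while Clcn5 is a chloride and proton exchanger and Cysltr1 a receptor for leukotrienes. Clcn5 had H3K9me3 values of -1.13 in MD1 EpiSCs against 3.05 in WT EpiSCs and of -1.04 in MD1 MEF against 0.29 in WT MEF. Its H3K27me3 values were 4.18 in MD1 EpiSCs against 3.70 in WT EpiSCs and 2.23 in MD1 MEF against 1.70 in WT MEF. Among the 10 genes themselves Pcdh19 was the closest to their median profile (0.40) and Pcdh11x the farthest from it (1.93).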

How the data were processed

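Reads were processed with BWA, cutadapt and SAMtools on build mm9, per the submitters' processing notes. Versions, counting rule and filters were not given in the sources used here. Per the labels' protocols, size-selected fragments went into NEBNext Ultra II libraries, and the antibodies were mouse monoclonals (CMA318 for H3K9me3, CMA323 for H3K27me3). The deposited values are log2 enrichments, 1 for each of 952 X-linked genes and 8 ChIP libraries. From these, MD1 minus WT differences, percentiles, medians and counts past 2-fold were computed with Python 3.11.15, pandas 2.3.3 and NumPy 2.4.6. All values in each library (100%) were matched by a ratio of whole numbers (denominator at most 30000, relative tolerance 1e-12) times 1 constant. The smallest pairs, which need not be the read counts, gave 95% counting intervals (normal approximation on the log scale). On simulated data the recovery of reduced pairs and of differences put in was tested. Recovery of the read counts and the coverage of the intervals were not tested. ChIP pairs summed over genes came to between 33117 (H3K9me3, MD1 EpiSCs) and 1804080 (H3K27me3, MD1 EpiSCs), and the precision of a single gene follows its own pair. Coordinates are mm9, counted from 1, and deposited starts count from 0. Of 840 names matched in RefSeq (GRCm38.p6), 346 had equal lengths when read so and 36 otherwise. All 10 members matched by name, and 6 had promoter sequence.

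No test across samples was made, since each group holds 1 library. The 10 genes and the list of 20 were chosen with earlier results of these data known. Named genes are the 10, their nearest measured neighbours, the extremes of the list of 20 in each comparison (1 is not reported here), and the 3 genes with profiles most like the median of the 10. Alternatives were centring on genes outside the H3K9me3-rich set (at least 2-fold over input in WT cells) or on all genes, a pseudocount of 0.1 on the linear ratio, thresholds of 1.5-fold and 3-fold, leaving out the lowest 10% of genes, genes with all 8 values, and 3 or 10 neighbours on each side. The comparison with 5 neighbours and these last settings were chosen after seeing the data.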

Additional observations from a re-analysis of the deposited data

Results flagged for a closer look

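Syp had H3K27me3 differences of opposite sign in the cell types. The MD1 minus WT log2 difference was -1.30 in EpiSCs (2.11 in MD1 cells against 3.41 in WT cells) and 0.79 in MEF (1.69 in MD1 cells against 0.90 in WT cells). As deposited, both counting intervals excluded 0 (-1.83 to -0.77 in EpiSCs and 0.19 to 1.40 in MEF). Centred on all genes or on genes outside the H3K9me3-rich set, the MEF difference was 0.50 or 0.52. Both values are smaller than the half-width of its interval, 0.60, so the MEF interval then included 0. The EpiSCs difference was then -1.20 or -0.83, still beyond its half-width of 0.53. The difference between the cell types was not tested, because each value comes from 1 library per genotype. No other gene of the 10 had intervals beyond 0 in opposite directions as deposited.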

How the results depend on the processing

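No paired analysis was possible because each group holds 1 library, and for the same reason no library could be left out. Centring on genes outside the H3K9me3-rich set adds 1.19 (H3K9me3, EpiSCs), 0.99 (H3K9me3, MEF), 0.47 (H3K27me3, EpiSCs) and -0.27 (H3K27me3, MEF) to each difference, and centring on the median of all genes adds 3.30, 1.19, 0.10 and -0.29 in the same order. Of the 40 single-gene differences 29 kept their sign with the outside-rich centring, 27 with the all-gene centring and 40 with a pseudocount of 0.1, and the 2-fold call was unchanged in 32, 30 and 38. Shares of all genes past 2-fold are given as deposited only.

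For H3K9me3 in EpiSCs the all-gene centring left 3 genes at least 2-fold lower and put 3 at least 2-fold higher. The count of lower genes was 7 with the outside-rich centring, 7 at 3-fold and 9 with the pseudocount. The median was -2.45 with the outside-rich and -0.34 with the all-gene centring. The all-gene centring reversed Cask (1.89), Dlg3 (1.89), Nlgn3 (2.25) and L1cam (0.78), and the outside-rich centring reversed Nlgn3 (0.14). For H3K9me3 in MEF 8 genes were lower at 1.5-fold, 1 was higher with either centring, and the median was 0.18 (outside-rich) and 0.38 (all genes); Pcdh11x became 0.19 with the all-gene centring. For H3K27me3 in EpiSCs the count of lower genes was 0 with the outside-rich centring and at 3-fold and 1 with the all-gene centring, and the median was 0.43 with the outside-rich centring. For H3K27me3 in MEF the count of lower genes was 0 at 3-fold, and the median was -0.037 (outside-rich) and -0.052 (all genes). With 3 neighbours on each side 1 gene was above its neighbours for H3K9me3 in EpiSCs and 2 were at least 2-fold above for H3K9me3 in MEF. The centred values follow from the constants added; the cause of the other shifts was not tested.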
